A study of Homo sapiens with 18 samples.

Results

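The MYC, MAX and MXD network was examined as 10 genes, MYC, MYCN, MYCL, MAX, MXD1, MXD3, MXD4, MXI1, MNT and MLX, of the 26475 genes listed in the series. The choice was by name and not by their values, though with earlier results of these data known. These 10 genes were followed in C4-2B cells, a prostate cancer (PCa) line that is recorded as wild type. The study asked how these cells respond to VIC-1911, an inhibitor of aurora kinase A (AURKA), alone and with olaparib, an inhibitor of poly (ADP-ribose) polymerase. PolyA RNA was sequenced in 18 libraries, 3 per group. At 2 days the groups were DMSO vehicle (VEH) and 0.1 μM VIC-1911 (VIC). At 7 days they were DMSO vehicle, 0.1 μM VIC-1911, 1 μM olaparib (OLA) and 0.1 μM VIC-1911 with 1 μM olaparib (COMBO). All groups came from the same line, and the labels do not say whether the 3 libraries of a group were separate cultures, so the p-values measure the spread between libraries, which may be technical.

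MYC, MYCN and MYCL are basic helix-loop-helix leucine zipper factors that bind DNA only as dimers with MAX, at E-box sites such as CACGTG, and raise transcription of genes for ribosome production, metabolism and cell cycle entry. MXD1, MXI1, MXD3, MXD4 and MNT compete for MAX, bind the same sites and bring SIN3 and histone deacetylases, which lower transcription. MLX is a second dimer partner, used by the glucose-sensing factors MondoA (MLXIP) and ChREBP (MLXIPL) and also by MXD1, MXD4 and MNT. MYC is commonly gained in PCa, and AURKA is known to bind MYC family proteins and slow their degradation, a step that RNA levels do not show.

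The network's own binding motif occurs in the promoters of some of its genes. In the 250 bases before the transcription start, RefSeq sequence of GRCh38.p14 was found for 9 of the 10 genes, in 12 promoters. The gene without an entry was MYC, so the shares of members below do not cover it. CACGTG, which reads the same on both strands, was present in 3 of the 12 (25.0%), against 6.34% of 35116 promoters of the same length. By gene it was 3 of 9 (33.3%), against 7.73% of 27305 genes. The promoters of MXD4, MNT and MLX carry it, with its first base 238, 193 and 50 bases before the start, and are shown with the motif in capitals because these genes moved with treatment in different ways. The promoter of MXD3, the member with the largest change at 2 days, has none and is shown for comparison. They lie on GRCh38.p14 at chr4:2262110-2262359 (minus strand, MXD4), chr17:2401061-2401310 (minus strand, MNT), chr17:42566850-42567099 (plus strand, MLX) and chr5:177312753-177313002 (minus strand, MXD3). A motif match is a description of the sequence and not evidence of binding.
MXD4: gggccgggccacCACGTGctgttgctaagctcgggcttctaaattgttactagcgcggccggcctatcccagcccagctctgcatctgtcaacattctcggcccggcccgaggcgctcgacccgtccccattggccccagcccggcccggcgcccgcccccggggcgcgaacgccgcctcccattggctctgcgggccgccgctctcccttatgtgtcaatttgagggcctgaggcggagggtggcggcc
MNT: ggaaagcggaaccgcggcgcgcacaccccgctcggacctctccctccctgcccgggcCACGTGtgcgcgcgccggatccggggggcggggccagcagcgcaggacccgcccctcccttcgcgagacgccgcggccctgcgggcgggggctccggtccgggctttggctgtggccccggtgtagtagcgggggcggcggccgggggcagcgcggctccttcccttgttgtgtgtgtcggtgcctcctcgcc
MLX: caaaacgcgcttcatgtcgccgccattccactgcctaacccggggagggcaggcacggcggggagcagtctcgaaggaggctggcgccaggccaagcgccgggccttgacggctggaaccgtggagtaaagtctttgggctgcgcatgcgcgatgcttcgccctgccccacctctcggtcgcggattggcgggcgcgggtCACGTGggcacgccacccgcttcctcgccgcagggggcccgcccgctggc
MXD3: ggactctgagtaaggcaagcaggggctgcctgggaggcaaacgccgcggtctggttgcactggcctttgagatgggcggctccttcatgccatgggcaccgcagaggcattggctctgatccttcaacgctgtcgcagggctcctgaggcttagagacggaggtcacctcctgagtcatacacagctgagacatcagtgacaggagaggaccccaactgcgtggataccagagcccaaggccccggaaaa

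Libraries held 3245273 to 7184420 counts at 2 days and 4967931 to 19684208 at 7 days, the shallowest 7-day library being olaparib replicate 1. The library names of the 7-day vehicle and VIC-1911 samples form a single run of numbers and those of the olaparib and combination samples another, so that run and olaparib cannot be told apart in any comparison across them. VIC-1911 against vehicle and combination against olaparib stay within a run. The 3 comparisons with the 7-day vehicle share its 3 libraries. Of the markers of other cell types, KRT5 (basal epithelium), CD3E (T cells), NEUROD1 (neuroendocrine cells) and DCN (stroma) were listed at 0 throughout, and TP63 and PTPRC reached no more than 0.00596 and 0.0113 FPKM. FPKM, the deposited level, is the number of fragments scaled to transcript length and library size. At 7 days the 4 stromal markers summed to 8.02 to 10.4 FPKM in vehicle and 9.30 to 10.0 with VIC-1911. With olaparib the stromal sum was 12.6 to 15.8 FPKM, and in combination 20.2 to 21.0. In each group 2 of the 4 stayed under 1 FPKM in every library. The 2 stromal markers tested, VIM among them, were both called higher with olaparib and in combination (28.1% and 28.6% of all genes). The 3 leukocyte markers summed to 6.11 to 6.91 FPKM in 7-day vehicle and 7.50 to 7.80 with VIC-1911. With olaparib their sum was 8.24 to 10.1 FPKM, and in combination 9.29 to 10.1. The 1 leukocyte marker tested was called higher with olaparib and in combination (28.1% and 28.6% of all genes). The 3 basal markers summed to 1.40 to 1.59 FPKM in 7-day vehicle and 0.799 to 1.35 with VIC-1911. With olaparib their sum was 1.88 to 2.76 FPKM, and in combination 2.43 to 2.89. The 1 basal marker tested at 7 days was called lower with VIC-1911 (25.8% of all genes). It was called higher with olaparib and in combination (28.1% and 28.6% of all genes). The 6 neuroendocrine markers summed to 3.89 to 5.21 FPKM in 2-day vehicle and 2.32 to 2.84 with VIC-1911. In 7-day vehicle the sum was 3.76 to 4.83 FPKM, and with VIC-1911 2.53 to 3.42. It was 2.65 to 3.27 FPKM with olaparib and 3.36 to 3.67 in combination. The part of these markers in the results below was not tested. In bulk RNA, a change in the share of cells that express a gene and a change in RNA per cell cannot be told apart.

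MYC was the dominant member in C4-2B cells. In 7-day vehicle its mean level was 99.1 ± 6.07 FPKM (SD, n = 3), 51.5% ± 1.54 of the summed level of the 10 members. MXD4 was next at a mean of 33.4 FPKM, then MLX at 21.3, MAX at 11.5, MXI1 at 10.9, MNT at 7.23 and MXD3 at 5.80, with MYCL at 1.95 and MXD1 at 1.18 FPKM lowest. MAX and MXI1 are neighbours whose libraries overlapped in vehicle (10.9 to 12 and 10.6 to 11.2 FPKM). MYCN, the paralog tied to neuroendocrine PCa, was listed at 0 FPKM in all 18 libraries, had no row in the count tables and was not tested. At 7 days, a count of 0 in 163895598 counts over 12 libraries allows a level of up to 0.0183 CPM (3 counts), for counting error only. The other 9 members passed the filter of 10 counts in 3 libraries at both times.

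**Figure D1:**
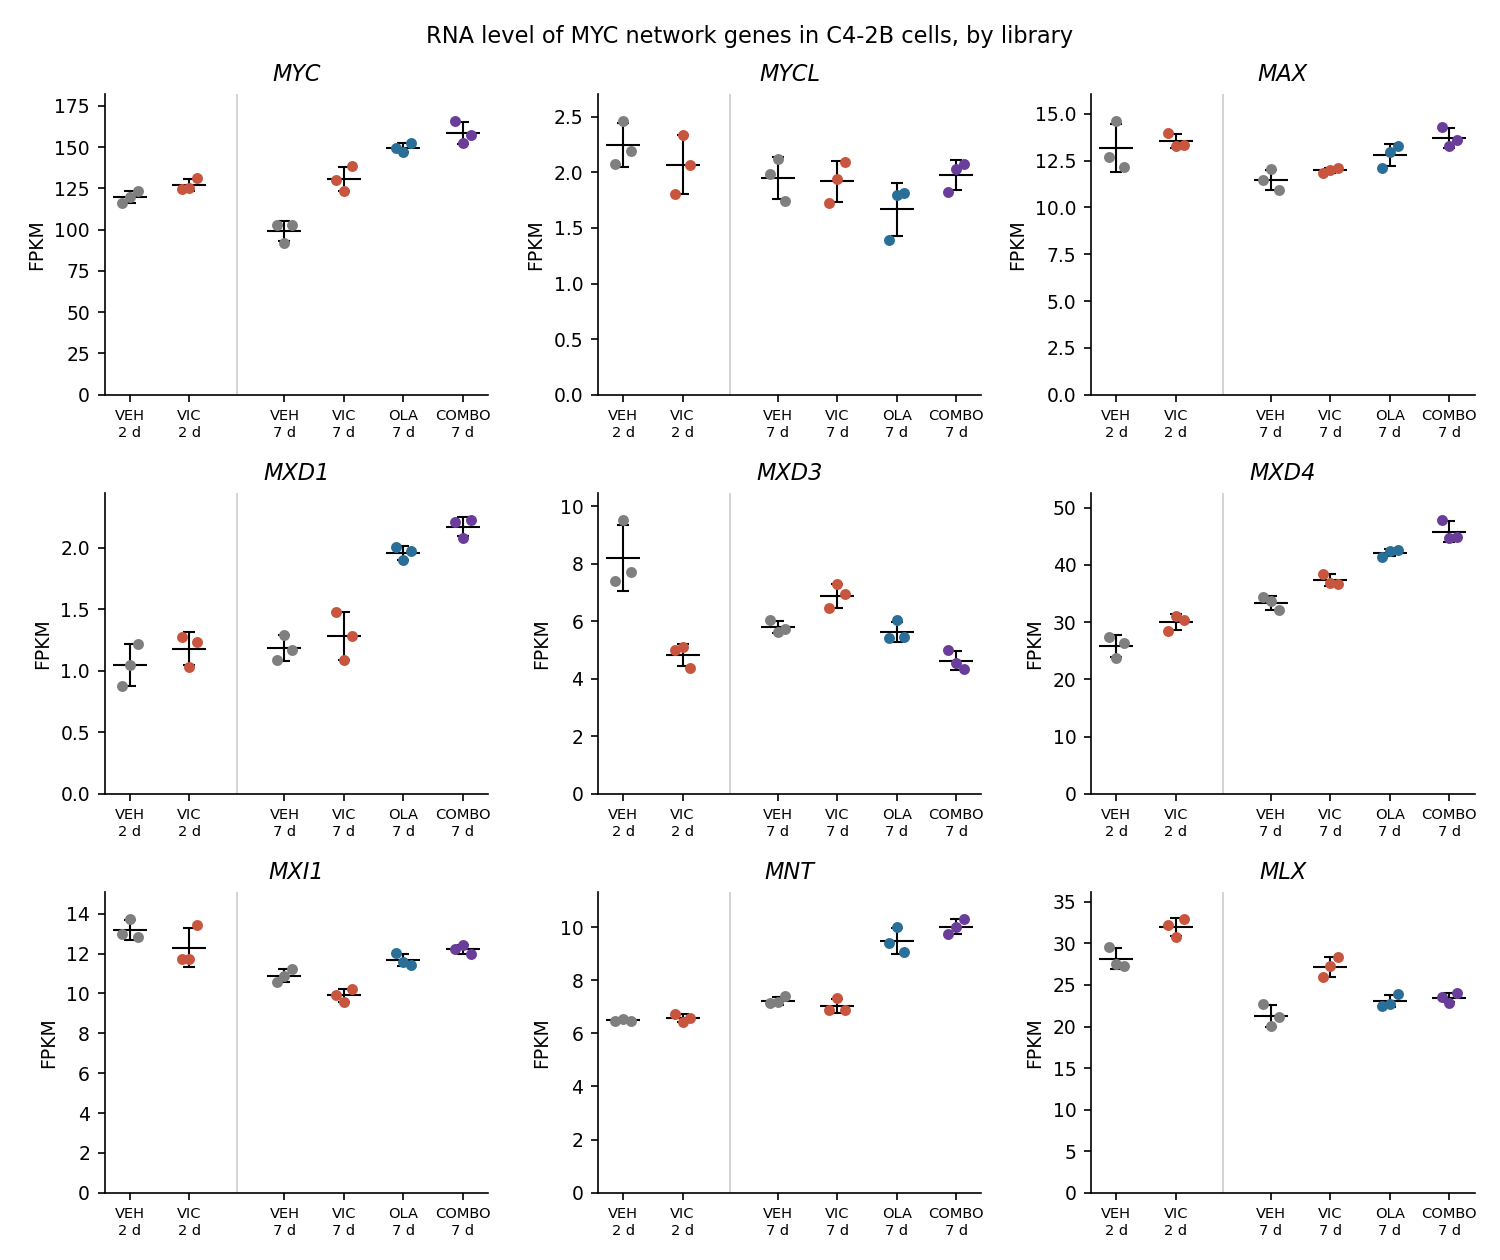
FPKM of the 9 detected members (each panel from 0) in the 18 libraries, by group; points are libraries, the horizontal mark is the mean and the bars are the SD (n = 3), and the grey line separates tables made separately at 2 and 7 days. MYC in the 7-day vehicle libraries (92.1 to 103 FPKM) lies under all other 7-day libraries, and MXD3 with VIC-1911 at 2 days (4.38 to 5.09 FPKM) lies under its vehicle.

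MYC RNA was higher in every treated group at 7 days than in vehicle and was highest in combination. The gene lies on chromosome 8 at chr8:127735434-127742951 (GRCh38, plus strand). Its 7-day levels were 103, 92.1 and 103 FPKM in vehicle, 130, 124 and 139 with VIC-1911, 150, 147 and 152 with olaparib, and 166, 153 and 158 in combination. The vehicle libraries did not overlap those of any treated group, and each step in this order except the last was larger than the spread between replicates. Against vehicle, MYC rose by 0.36 on the log2 scale with VIC-1911 (SE 0.05, 28%, adjusted p = 3.72e-07 by edgeR's quasi-likelihood test with Benjamini-Hochberg adjustment over all genes tested, as for every adjusted p here), by 0.58 with olaparib (SE 0.05, 49.4%, adjusted p = 3.03e-11) and by 0.68 in combination (SE 0.05, 60.0%, adjusted p = 6.06e-13). Combination and olaparib differed by 0.10, short of the threshold (95% interval 0.00 to 0.20, adjusted p = 0.197). Olaparib exceeded VIC-1911 by 0.22 (adjusted p = 0.000968). This comparison, and those of olaparib and combination with vehicle, cross the 2 runs of library names. No 7-day change of MYC reached the 2-fold limit that the study used at that time. Of the genes tested, 61.5% changed by less than MYC with VIC-1911, 79.8% with olaparib and 82.6% in combination.

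At 2 days the response of MYC to VIC-1911 was small. The levels were 116, 120 and 124 FPKM in vehicle and 125, 125 and 131 with VIC-1911, which abut without overlapping. The log2 fold change was 0.11 (95% interval 0.02 to 0.21, adjusted p = 0.107), so the test did not call it. The VIC-1911 effect on MYC was larger at 7 than at 2 days by 0.23 on the log2 scale (95% interval 0.09 to 0.37, adjusted p = 0.00842 in a joint fit of both times). PVT1, the long non-coding RNA gene downstream of MYC, rose with VIC-1911 at 2 days (log2 fold change 0.41, adjusted p = 0.0057), where MYC itself was not called. At 7 days PVT1 rose by 0.21 with VIC-1911 (adjusted p = 0.013), 0.65 with olaparib and 0.78 in combination. CASC11, which is antisense to MYC over 3554 bases, was at 0.182 to 0.652 FPKM in its group means and was not called in any comparison where it was tested.

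MYCL and MAX, the remaining activator and the shared partner, moved little. MYCL, at 1.39 to 2.46 FPKM over all libraries, was not called in any of the 9 comparisons. Its 95% intervals against vehicle reached from -0.45 to 0.27 on the log2 scale. MAX, the partner on which MYC and its antagonists depend, was at 10.9 to 12 FPKM in 7-day vehicle, 11.8 to 12.1 with VIC-1911, 12.1 to 13.3 with olaparib and 13.3 to 14.3 in combination. It rose by 0.25 in combination (SE 0.06, 18.6%, adjusted p = 0.000818), without overlap with vehicle. With olaparib the change was 0.14 and the adjusted p of 0.0499 stood at the threshold. That call was lost in 8 of 14 alternative analyses (adjusted p 0.0581 to 0.208), among them those without vehicle replicate 1 or 3 or olaparib replicate 2 or 3. With VIC-1911 alone MAX gave 0.05 at 2 days and 0.01 at 7 days, with intervals of -0.11 to 0.22 and -0.12 to 0.13. MAX shares 56479 bases with FNTB, which was not called in combination (-0.23, adjusted p = 0.639), and the part of shared reads was not tested. The ratio of MYC to MAX, as FPKM, was 8.67 ± 0.90 in 7-day vehicle, 10.9 ± 0.587 with VIC-1911, 11.7 ± 0.557 with olaparib and 11.6 ± 0.0506 in combination (SD, n = 3).

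MXD3, a MAX-binding repressor that is unusual in the family for its expression in dividing cells, gave the largest change of any member at 2 days. It fell there, opposite in direction to its 7-day change with VIC-1911 alone. Its levels at 2 days were 7.39, 9.52 and 7.71 FPKM in vehicle and 4.99, 5.09 and 4.38 with VIC-1911, with no overlap. It fell by 0.76 on the log2 scale (SE 0.11, 95% interval -0.99 to -0.53, adjusted p = 5.36e-06), and 98.2% of the genes tested at 2 days changed by less. It was the only member past the 1.5-fold limit that the study used at 2 days, which 2.16% of 12241 genes passed. The fall held in all 13 alternative analyses, from -0.85 to -0.62. At 7 days the order was different: 6.04, 5.63 and 5.74 FPKM in vehicle, 6.45, 7.28 and 6.94 with VIC-1911, 5.41, 6.04 and 5.44 with olaparib, and 4.98, 4.54 and 4.34 in combination. MXD3 was thus highest with VIC-1911 alone and lowest in combination.

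Against 7-day vehicle, MXD3 rose by 0.21 with VIC-1911 (SE 0.08, adjusted p = 0.0321) and fell by 0.33 in combination (SE 0.08, adjusted p = 0.00123). Olaparib alone gave -0.05 (adjusted p = 0.619). The rise was lost without vehicle replicate 2 or 3 or VIC-1911 replicate 2 or 3 (adjusted p 0.0684 to 0.164). It was also lost with DESeq2 (adjusted p = 0.0792) and with upper-quartile scaling (adjusted p = 0.0522). Within the olaparib run, combination was 0.28 under olaparib on the log2 scale (95% interval for combination less olaparib -0.45 to -0.11, adjusted p = 0.0275), a call lost without olaparib replicate 2 or combination replicate 2 or 3 (adjusted p 0.0517 to 0.183). The gene shares 2284 bases with RAB24 and 3151 with PRELID1, and the counting strand was not stated. At 2 days neither neighbour was called (log2 fold changes 0.03 and 0.05). At 7 days with VIC-1911, RAB24 fell by 0.64 (adjusted p = 1.88e-10) and PRELID1 rose by 0.45 (adjusted p = 8.86e-06), and the part of shared reads in the 7-day values of MXD3 was not tested.

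MXD4, the most abundant repressor of the network, rose in all 4 comparisons with vehicle. Its levels were 27.4, 23.8 and 26.3 FPKM in 2-day vehicle and 28.5, 31.1 and 30.5 with VIC-1911. The groups did not overlap, and the log2 fold change was 0.24 (SE 0.06, adjusted p = 0.00437). At 7 days it was at 34.5, 33.6 and 32.1 FPKM in vehicle, 38.5, 36.9 and 36.7 with VIC-1911, 41.4, 42.4 and 42.6 with olaparib, and 47.9, 44.7 and 44.9 in combination. These 4 groups rose in that order without overlap. The log2 fold changes against vehicle were 0.11 with VIC-1911 (adjusted p = 0.0398), 0.32 with olaparib (adjusted p = 8.68e-07) and 0.45 in combination (adjusted p = 7.72e-10). Combination exceeded olaparib by 0.13 (95% interval 0.04 to 0.22, adjusted p = 0.0459). The 7-day VIC-1911 call was lost without any of the 3 vehicle libraries or VIC-1911 replicate 1 or 2 (adjusted p 0.0588 to 0.180). It was also lost with DESeq2 (adjusted p = 0.0525), upper-quartile scaling (0.0897) and the compared groups alone (0.0606), and held in 6 of 14 alternatives. The call against olaparib was lost without any olaparib library or combination replicate 1 or 3 (adjusted p 0.0845 to 0.192). It was also lost with no filter (adjusted p = 0.125), both limma fits (0.0978 and 0.0923) and the compared groups alone (0.0689), and held in 5 of 14.

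MXD1 and MNT rose in the groups that received olaparib. MXD1, the founding MXD family member and a gene often raised as cells differentiate, was the least abundant detected member. Its levels were 1.09, 1.29 and 1.17 FPKM in 7-day vehicle, 1.48, 1.09 and 1.28 with VIC-1911, 2.01, 1.90 and 1.97 with olaparib, and 2.21, 2.08 and 2.23 in combination. All 6 libraries with olaparib lay above all 6 without it. MXD1 rose by 0.69 with olaparib (SE 0.12, adjusted p = 9.88e-06) and by 0.87 in combination (SE 0.11, 82.3%, adjusted p = 1.21e-07), the largest change of any member at 7 days. It rested on 58 to 286 counts per library at 7 days and 19 to 58 at 2 days. VIC-1911 alone gave 0.05 at both times (95% intervals -0.37 to 0.47 and -0.21 to 0.30). MXD1 shares 7888 bases with SNRNP27 on the same strand. SNRNP27 was not called with olaparib (0.07, adjusted p = 0.575) or in combination (0.20, adjusted p = 0.0646), and the part of shared reads was not tested.

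MNT, a widely expressed MAX partner that opposes MYC in growing cells, was at 7.13, 7.16 and 7.40 FPKM in 7-day vehicle, 6.89, 7.33 and 6.88 with VIC-1911, 9.40, 10.0 and 9.05 with olaparib, and 9.73, 10.0 and 10.3 in combination. As with MXD1, the libraries with and without olaparib did not overlap. It rose by 0.38 with olaparib (SE 0.06, adjusted p = 4.88e-06) and by 0.47 in combination (SE 0.06, adjusted p = 6.97e-08). Within the runs of library names, the VIC-1911 effect was -0.08 without olaparib (adjusted p = 0.286) and 0.09 with it (adjusted p = 0.330). For MXD1 the same values were 0.05 (adjusted p = 0.766) and 0.18 (adjusted p = 0.304). MXD1 and MNT were therefore called only in comparisons that cross the 2 runs, where run and olaparib cannot be told apart.

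MXI1, the repressor also known as MXD2, was at 10.6 to 11.2 FPKM in 7-day vehicle, 9.57 to 10.2 with VIC-1911, 11.4 to 12 with olaparib and 12 to 12.4 in combination. The VIC-1911 libraries lay under vehicle and the combination libraries above it. MXI1 fell by 0.18 with VIC-1911 (SE 0.06, adjusted p = 0.011) and rose by 0.16 in combination (SE 0.06, adjusted p = 0.0128). The first call was lost without VIC-1911 replicate 2 (adjusted p = 0.0501) and the second without vehicle replicate 1 or 2 (adjusted p = 0.0951 and 0.0511). At 2 days the groups overlapped and the value was -0.15 (adjusted p = 0.223).

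MLX, the partner of MondoA and ChREBP, rose with VIC-1911 at both times. It was at 29.6, 27.5 and 27.3 FPKM in 2-day vehicle and 32.2, 30.7 and 32.9 with VIC-1911, without overlap, a log2 fold change of 0.23 (SE 0.06, adjusted p = 0.00727, and 0.0567 by DESeq2). At 7 days it was at 22.7, 20.0 and 21.2 FPKM in vehicle, 26.0, 27.2 and 28.4 with VIC-1911, 22.5, 22.8 and 23.9 with olaparib, and 23.5, 22.9 and 24.0 in combination. Only the VIC-1911 group stood clear of the other three. MLX rose by 0.31 with VIC-1911 (SE 0.06, 24.1%, adjusted p = 2.58e-05). With olaparib the value was 0.10 (adjusted p = 0.126) and in combination 0.14 (adjusted p = 0.0357). The combination call was lost without vehicle replicate 2 or 3 or combination replicate 1 or 3 (adjusted p 0.0787 to 0.331). MLX shares 930 bases with PSMC3IP, which rose by 0.76 with VIC-1911 at 7 days (adjusted p = 9.77e-06), and the part of shared reads was not tested.

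**Figure D2:**
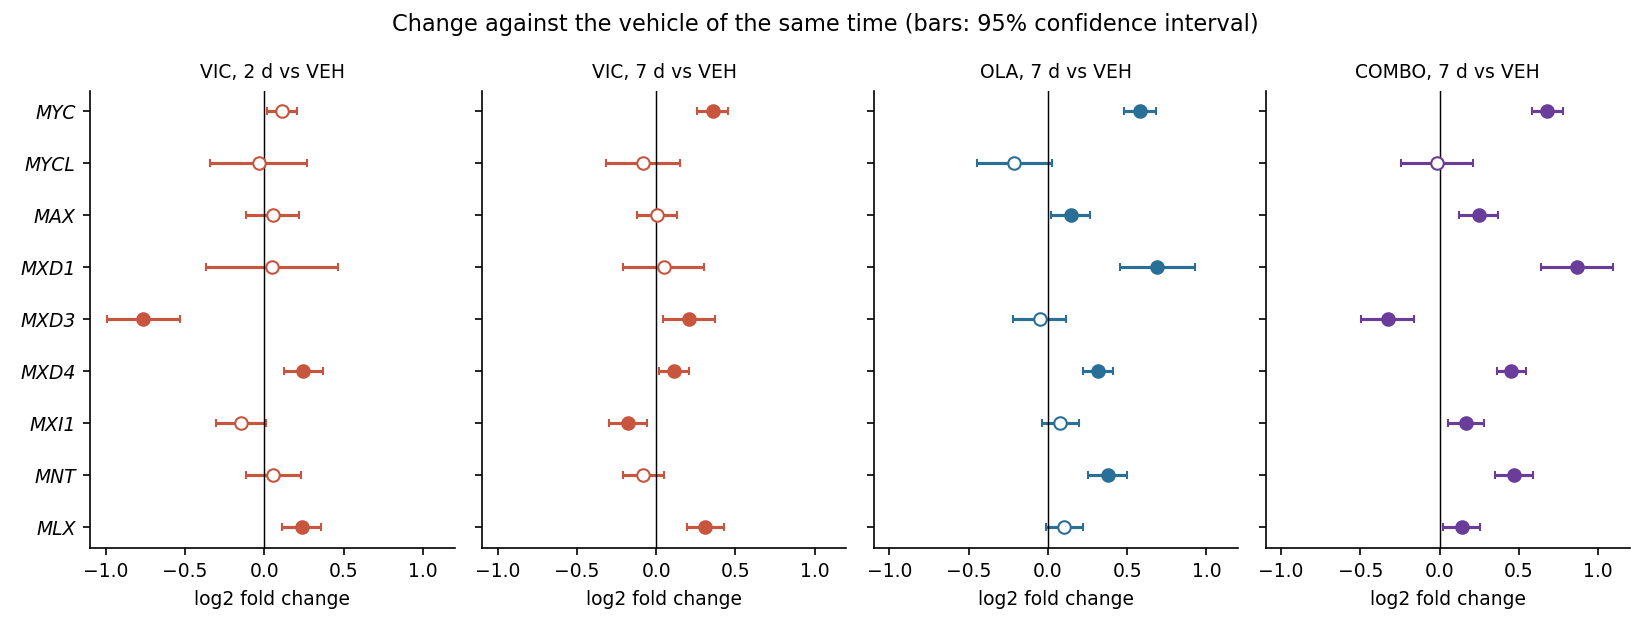
Log2 fold change of the 9 tested members (rows) against the vehicle of the same time, in 4 panels; bars are 95% confidence intervals and filled points passed an adjusted p of 0.05. MXD3 stands to the left at 2 days (-0.76), and in combination 7 members lie to the right of 0.

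Counted together, members changed about as often as other genes under either drug alone at 7 days. With VIC-1911 5 of 9 were called, where 52.4% of 14409 genes were, and with olaparib 5 of 9, where 54.0% were. In combination 8 of 9 were called, where 56.6% of all genes were, 7 of them higher, where 28.6% of all genes were higher, and MXD3 lower. The median log2 fold change in combination was 0.25 over the 9 members and 0.00 over all genes tested. At 2 days 3 of 9 were called (MXD3, MXD4 and MLX), where 14.7% of 12241 genes were. Libraries of vehicle and treatment did not overlap for 4 of the 9 with VIC-1911 at 2 days (32.9% of all genes), and at 7 days for 5 with VIC-1911 (59.3%), 6 with olaparib (58.8%) and 8 in combination (59.2%). None of the 9 passed the 2-fold limit in combination, where 8.54% of all genes did. Between combination and olaparib 2 of 9 were called (MXD3 and MXD4), where 11.5% of all genes were. Against VIC-1911 alone, combination differed in 8 of 9 (42.9% of all genes) and olaparib in 7 of 9 (23.4% of all genes). These comparisons, like those of olaparib and combination with vehicle, cross the runs of library names.

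The effect of VIC-1911 differed with and without olaparib for 4 of the 9 members, where 44.0% of all genes differed. This interaction, combination less olaparib minus VIC-1911 less vehicle, is made of differences within each run of library names. It was -0.26 for MYC (95% interval -0.40 to -0.12, adjusted p = 0.00274), where VIC-1911 gave 0.36 without olaparib and 0.10 with it. For MLX it was -0.28 (95% interval -0.44 to -0.12, adjusted p = 0.00504), from 0.31 without olaparib to 0.03 with it. The effect on MXD3 went from 0.21 to -0.28, an interaction of -0.48 (95% interval -0.72 to -0.25, adjusted p = 0.00111), and that on MXI1 from -0.18 to 0.09, an interaction of 0.26 (95% interval 0.10 to 0.43, adjusted p = 0.00817). MXD4 gave near-equal values, 0.11 and 0.13, with an interaction of 0.02 (95% interval -0.11 to 0.15). Between the times, the VIC-1911 effect differed for MYC and MXD3 alone among the 9, where 28.8% of 13832 genes differed. For MXD3 the difference was 0.95 (95% interval 0.67 to 1.24, adjusted p = 4.65e-07).

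**Figure D3:**
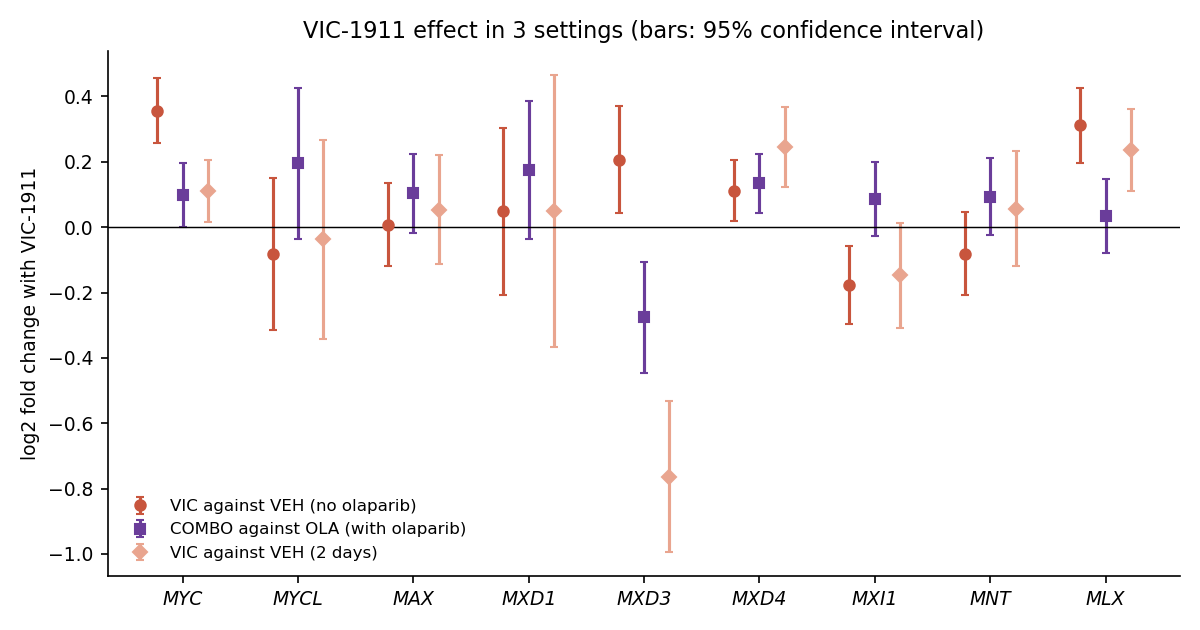
Log2 fold change of each member with VIC-1911 at 7 days without olaparib (circles), at 7 days with olaparib (squares) and at 2 days (diamonds); bars are 95% confidence intervals. MXD3 goes from 0.21 without olaparib to -0.28 with it and -0.76 at 2 days, and MYC is highest without olaparib at 7 days (0.36).

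Summed over the network, MYC gained on its antagonists under every 7-day treatment, although the summed level of the antagonists was higher in each. The ratio of MYC to the sum of MXD1, MXD3, MXD4, MXI1 and MNT, as FPKM, was 1.70 ± 0.109 in vehicle, 2.09 ± 0.127 with VIC-1911, 2.11 ± 0.0593 with olaparib and 2.12 ± 0.0449 in combination (SD, n = 3). The vehicle libraries, 1.57 to 1.78, lay under the 9 treated libraries, which began at 1.99, while the 3 treated groups overlapped each other. The antagonists summed to 58.5 ± 0.842 FPKM in vehicle and 74.8 ± 1.89 in combination. Their composition also differed with VIC-1911 at 2 days. MXD4 was 47.2% ± 3.24 of them in 2-day vehicle and 54.7% ± 1.35 with VIC-1911, and their summed level, 54.8 ± 0.342 and 54.9 ± 1.46 FPKM, hardly differed, so MXD4 stood higher and MXD3 lower within a near-constant total. These ratios are descriptions and carry no test.

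Genes that MYC is known to activate were mostly higher than vehicle in each treated group at 7 days, but did not follow MYC between those groups. Of 38 genes in this list, for ribosome production, nucleotide synthesis, chaperones and metabolism, 36 were tested. At 7 days 31 were higher and 1 lower with VIC-1911 (26.6% and 25.8% of all genes), 30 higher and 3 lower with olaparib (28.1% and 25.9%), and 30 higher and 4 lower in combination (28.6% and 28.0%). The list's median log2 fold changes were 0.44, 0.37 and 0.32, where the medians of all genes tested were -0.01, 0.01 and 0.00. MYC itself went in the other order, with 0.36, 0.58 and 0.68. Against VIC-1911 alone, 4 of the 36 were higher and 17 lower in combination (20.7% and 22.2% of all genes). With olaparib against VIC-1911, 1 was higher and 11 lower (11.1% and 12.3% of all genes). MYC was called higher in both comparisons (0.32 and 0.22), which cross the runs of library names. LDHA, the enzyme that makes lactate, rose by 1.12 on the log2 scale with VIC-1911, 0.84 with olaparib and 0.70 in combination. NOP58, a core protein of box C/D ribonucleoproteins, rose by 0.66, 0.64 and 0.67 in the same order. CDK4, the G1 cyclin-dependent kinase, rose by 0.44, 0.55 and 0.57. BOP1, needed to process rRNA of the large ribosomal subunit, rose by 0.48, 0.45 and 0.52. At 2 days, where MYC was not called, 17 of the 36 were higher and none lower (7.5% and 7.19% of all genes), with a median of 0.15. The interaction was negative in 31 of 36 and positive in 1 (22.9% and 21.0% of all genes), with a median of -0.43, so for most of them, as for MYC, the VIC-1911 effect was lower with olaparib present.

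Of 9 tested genes that MYC is known to repress, 4 were higher and 2 lower with VIC-1911 at 2 days (7.5% and 7.19% of all genes). At 7 days 4 were higher and 2 lower with VIC-1911 (26.6% and 25.8%), and 5 higher and 1 lower with olaparib (28.1% and 25.9%). In combination 4 were higher and 1 lower, where 28.6% of all genes were higher and 28.0% lower. The genes that rose were CDKN1A, the cyclin-dependent kinase inhibitor p21 (log2 fold change 3.31), THBS1, which encodes a secreted inhibitor of blood vessel growth (2.65), NDRG1, a gene induced by stress and differentiation (1.44), and GADD45A, a growth arrest gene (1.05). CDKN1A and GADD45A are also targets of p53. CDKN1A was at 25.9 FPKM in 7-day vehicle and 96.1, 216 and 258 with VIC-1911, olaparib and the combination. The gene that fell was CDKN1B, which encodes the inhibitor p27 (-0.72), named here after its value was seen. Genes called activated and genes called repressed by MYC both held members that rose in the same libraries.

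RNA was also counted at 7 days for the corepressors that MXD proteins recruit and the coactivators of MYC. Of 13 SIN3 and histone deacetylase corepressor genes, 6 were higher and 2 lower with VIC-1911 (26.6% and 25.8% of all genes), 5 higher and 1 lower with olaparib (28.1% and 25.9%), and 4 higher and 4 lower in combination (28.6% and 28.0%), where the list's shares were near those of all genes. Its medians were 0.14, 0.10 and 0.07. In combination HDAC2 and HDAC1, the deacetylases, rose by 0.44 and 0.29, and NCOR1, a corepressor scaffold, fell by 0.39. Of 14 MYC coactivators and partners, 6 were higher and 1 lower with VIC-1911, 6 higher and 2 lower with olaparib, and 5 higher and 3 lower in combination, beside the same shares of all genes, with medians of 0.08, 0.06 and -0.05. TRRAP, the scaffold through which MYC recruits histone acetyltransferases, fell by 0.60 in combination and 0.34 with olaparib, and EP300, an acetyltransferase, fell by 0.41 in combination. WDR5, which helps to anchor MYC on chromatin, rose by 0.35, and KAT2A, an acetyltransferase of the TRRAP complexes, by 0.23.

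Of 19 tested genes for MYC protein turnover, 11 were higher and 1 lower with VIC-1911 at 7 days (26.6% and 25.8% of all genes), 5 higher and 2 lower with olaparib (28.1% and 25.9%), and 5 higher and 4 lower in combination (28.6% and 28.0%). With VIC-1911 at 2 days 1 was higher and 2 lower (7.5% and 7.19% of all genes). AURKA, the target of VIC-1911, rose by 1.86 with VIC-1911 (adjusted p = 4.31e-16) and by 0.48 with olaparib, and gave 0.11 in combination (adjusted p = 0.384). Its level was 6.35 FPKM in 7-day vehicle, 24.1 with VIC-1911, 9.13 with olaparib and 6.96 in combination. AURKA was named here for its place in the study, after its values were seen. In combination HUWE1, a ubiquitin ligase for MYC, fell by 0.51 and USP28, a deubiquitinase that stabilises it, by 0.47. GSK3A, a kinase paralog of the one that marks MYC for degradation, rose by 0.25 and AXIN1, a scaffold of that kinase, by 0.21.

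**Figure D4:**
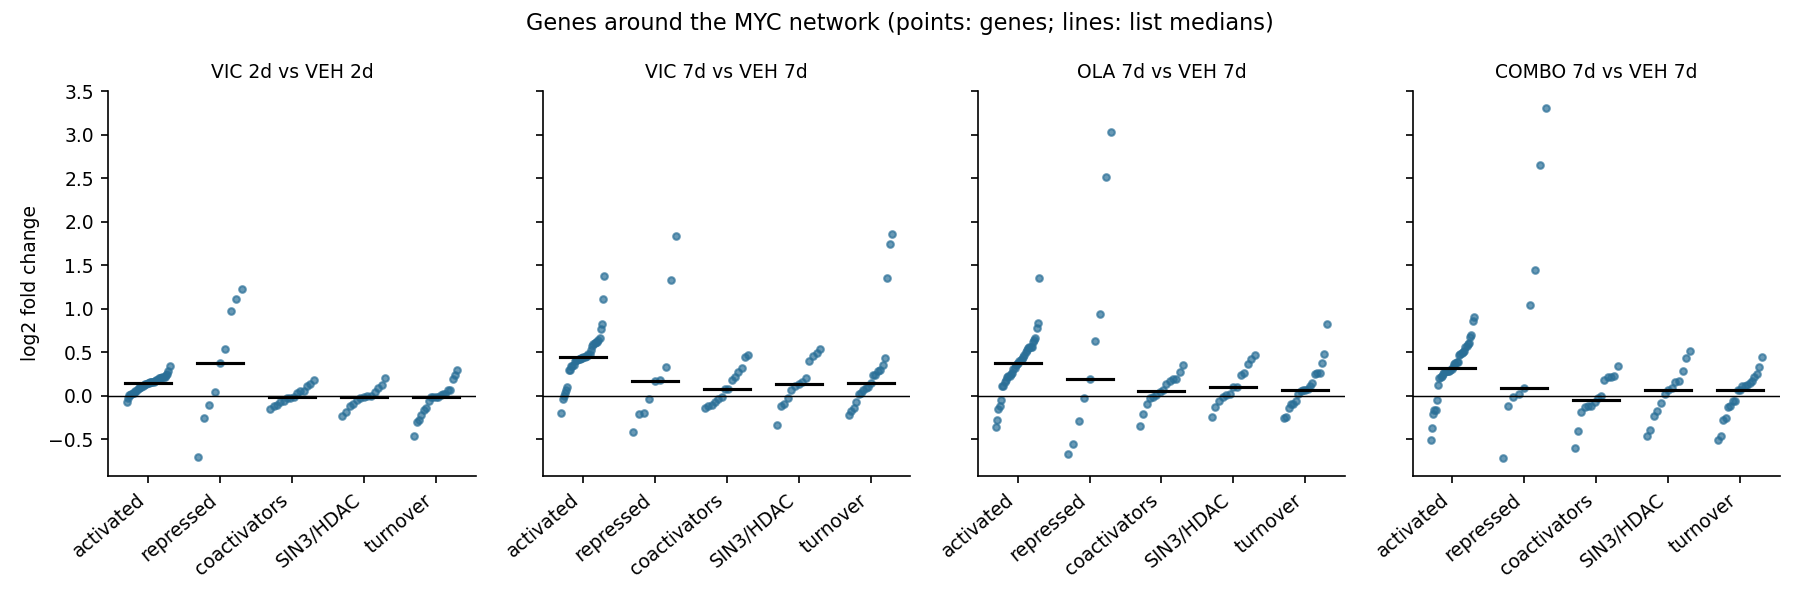
Log2 fold change of the tested genes of 5 lists around the network against the vehicle of the same time, in 4 panels; points are genes in order of their value and lines are list medians. The MYC-activated list has medians of 0.15, 0.44, 0.37 and 0.32 from left to right, and the highest point in combination is CDKN1A (3.31), on the MYC-repressed list.

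Around MLX, its partner genes moved in opposite directions. MLXIP (MondoA) rose by 0.40 with VIC-1911, 0.32 with olaparib and 0.34 in combination at 7 days, and MLXIPL (ChREBP) fell by 0.73, 0.51 and 0.67. Of the other 4 network genes, TFAP4, an E-box factor induced by MYC, rose by 0.40 in combination and MGA, a MAX partner in a Polycomb complex, by 0.27. Among 6 targets of MondoA and MLX, 1 was higher and 2 lower in combination, where 28.6% and 28.0% of all genes were. TXNIP, which curbs glucose uptake and is a direct MondoA target, fell by 0.70, 0.86 and 0.75 in the 3 treated groups, and HK2, which encodes a hexokinase, fell by 0.15 in combination. PFKFB3, a glycolytic regulator, rose by 0.90, 0.96 and 1.03.

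Genes with the pattern most like that of MYC were sought over the 4 log2 fold changes against vehicle, among 10993 genes at a mean of 1 FPKM or more at each time. The 5 nearest were PHAX, an adaptor for export of small nuclear RNA, WDR55, which takes part in rRNA processing, FBRSL1, RHOC and CBWD3, with root mean square differences of 0.0233 to 0.0308 on the log2 scale. PHAX gave 0.14 at 2 days and 0.37, 0.55 and 0.68 at 7 days, beside 0.11, 0.36, 0.58 and 0.68 for MYC. CBWD3 belongs to a family of near-identical copies and its counts are uncertain. For MXD1, the member with the largest root mean square change over these comparisons (0.55), the nearest were NOS3, the endothelial nitric oxide synthase, ZNF350, COL4A5, a collagen IV chain, SLC25A37, a mitochondrial iron importer, and FHDC1, at differences of 0.0683 to 0.0953. These likenesses rest on 4 values each, of which 3 share the vehicle libraries.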

How the data were processed

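PolyA RNA of C4-2B cells was sequenced paired-end. Per the study's methods, the authors trimmed reads with Trimmomatic, mapped them to GRCh38 and counted genes with STAR; the submitters' processing notes name hg38 and STAR 2.6.0, and the library kit and STAR version differ between notes and methods. Raw counts per gene and FPKM values, computed by the authors, were deposited for 2 and 7 days separately. The counting strand was not given in the sources used here. At 7 days the FPKM follow from the deposited counts, and at 2 days the members' differ from them by up to 4.63%.

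Counts were tested with edgeR 4.0.16 (R 4.3.3; TMM, genes with at least 10 counts in 3 libraries, quasi-likelihood test, Benjamini-Hochberg over all genes tested, call at 0.05) in fits of the 6 libraries of 2 days (12241 genes), the 12 of 7 days (14409) and the 12 vehicle and VIC-1911 libraries of both times (13832). Standard errors and 95% intervals came from the F statistics. Levels are deposited FPKM. Groups came from the sample titles, and the step was checked on simulated data. The 18 pairs of replicates within groups differed by more than counting noise (chi-square per degree of freedom 1.26 to 5.39). Alternatives were upper-quartile scaling, library size alone, no filter, DESeq2 1.42.0, limma 3.58.1 on log2(FPKM + 0.1) and log2(FPKM + 1), a replicate block, the compared groups alone and leaving out each library. The members and gene lists were chosen with earlier results of these data known. All members were named; from each list up to 4 called genes with the smallest adjusted p in combination were named (other named genes overlap a member, are cell type markers or are marked in the text), and the 5 genes nearest in pattern to MYC and to the member of largest change. Some items that this rule or the marker lists would name are not reported here. Promoters came from RefSeq (GRCh38.p14), gene positions from GENCODE v44.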

Additional observations from a re-analysis of the deposited data

Results flagged for a closer look

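Among the members, 6 effects differed between conditions by a test of the difference (edgeR's quasi-likelihood test with Benjamini-Hochberg adjustment). The VIC-1911 effect at 7 days differed with olaparib present by -0.26 on the log2 scale for MYC (adjusted p = 0.00274), -0.48 for MXD3 (adjusted p = 0.00111), 0.26 for MXI1 (adjusted p = 0.00817) and -0.28 for MLX (adjusted p = 0.00504). All 4 were called under each of the 19 alternatives. They are 44.4% of the 9 members, near the 44.0% of all genes tested that were called. The share of genes with a smaller interaction was 43.7% for MYC, 68.5% for MXD3, 44.8% for MXI1 and 46.6% for MLX. The VIC-1911 effect at 7 less that at 2 days was 0.23 for MYC (adjusted p = 0.00842) and 0.95 for MXD3 (adjusted p = 4.65e-07). Both were called under each of the 17 alternatives. The share called was 22.2% of the 9 members, under the 28.8% of all genes. Times were in tables made separately.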

How the results depend on the processing

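Of 1197 member fold changes under alternatives, 1108 kept their direction and side of the threshold, 51 lost and 3 gained a call, 35 without a call moved across 0, and none with a call reversed. The count of members called for VIC-1911 against vehicle at 7 days, 5, was 3 with upper-quartile scaling and 3 with DESeq2, and 2 to 4 with a library left out, the lowest without VIC-1911 replicate 2. The count for combination against olaparib, 2, was 1 with no filter, with DESeq2, with limma on log2(FPKM + 0.1), with limma on log2(FPKM + 1) and with the compared groups alone, and 0 to 1 with a library left out, the lowest without olaparib replicate 2 or combination replicate 3. MNT gained an interaction with upper-quartile scaling (adjusted p = 0.0466) and without combination replicate 1 (adjusted p = 0.0478), and MLX a rise with olaparib by library size alone (adjusted p = 0.0258).

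Replicate numbers did not pair the samples: same-numbered libraries had correlated deviations over 0.1 in 0 of 3 pairs at 2 days and 1 of 18 at 7 days. A fit with the replicate block changed 1 of 81 calls, MAX with olaparib (log2 fold change 0.14, adjusted p = 0.0581). With it, 3 members were called at 2 days and, at 7 days, 5 with VIC-1911, 4 with olaparib and 8 in combination. Depth limits MXD1 and MYCL most, at 19 and 39 counts in their shallowest libraries.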
